A study of Rattus norvegicus with 6 samples.

Results

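The prohormone processing enzymes are the proteases and modifying enzymes that turn inactive peptide precursors into hormones. Here 10 genes were followed, found in the tables by their symbols: Pcsk1, Pcsk2, Pcsk5, Pcsk6, Pcsk7 and Furin, which encode proprotein convertases, Cpe and Cpd, which encode carboxypeptidases, Pam, which encodes the amidating enzyme, and Qpct, which encodes glutaminyl cyclase. The count tables listed 33294 gene symbols, of which 24546 were detected by 1 or more counts and 17292 passed the filter on low counts, all 10 enzyme genes among them.

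RNA was sequenced from the pituitary glands of male Sprague-Dawley rats aged 11 weeks, with 3 rats and 3 libraries per group. The dams of the nicotine group were given an osmotic pump with nicotine tartrate (6 mg/kg/day) during pregnancy. The dams of the control group were given a pump with saline. Per the study, the pump lasts longer than the time from its implant to birth, and its removal is not described. Exposure of the pups through the dam after birth therefore cannot be told apart from exposure before birth. No direct treatment of the sons is described. The number of litters behind the 3 rats of each group was not given. The spread between libraries is thus a spread between rats that may include litter mates.

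Peptide hormones are made as long precursors that enter the secretory pathway. Proprotein convertases cut the precursor after basic residues, a carboxypeptidase then trims those residues from the new end, and Pam converts an exposed glycine into a C-terminal amide. Pcsk1, Pcsk2, Cpe and Pam work mainly inside secretory granules, whereas Furin, Pcsk5, Pcsk6, Pcsk7 and Cpd act mainly in the trans-Golgi network, at the cell surface or outside the cell. In the pituitary the precursor Pomc is cut by Pcsk1 to adrenocorticotropic hormone in corticotrophs, and further by Pcsk2 to melanocyte-stimulating hormone in the melanotrophs of the intermediate lobe.

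Promoter windows from 250 bases before to 50 bases after the transcription start were available from RefSeq (assembly GRCr8) for 7 of the 10 genes, namely Pcsk2, Cpe, Pam, Pcsk5, Pcsk6, Pcsk7 and Qpct. Those of Pcsk2 (chr3:151333688-151333987, plus strand), Cpe (chr16:29796457-29796756, plus strand) and Pam (chr9:105570118-105570417, plus strand) are shown. These 3 were the only ones of the 7 windows that held the letters TGACG on either strand, the core of the cAMP response element. That core is in capitals, written as CGTCA where it lies on the other strand.
Pcsk2: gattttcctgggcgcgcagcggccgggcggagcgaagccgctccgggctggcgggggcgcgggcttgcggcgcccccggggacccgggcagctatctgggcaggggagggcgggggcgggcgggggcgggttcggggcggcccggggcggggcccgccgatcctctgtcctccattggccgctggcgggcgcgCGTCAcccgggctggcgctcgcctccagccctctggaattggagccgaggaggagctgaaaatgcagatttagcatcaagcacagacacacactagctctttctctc
Cpe: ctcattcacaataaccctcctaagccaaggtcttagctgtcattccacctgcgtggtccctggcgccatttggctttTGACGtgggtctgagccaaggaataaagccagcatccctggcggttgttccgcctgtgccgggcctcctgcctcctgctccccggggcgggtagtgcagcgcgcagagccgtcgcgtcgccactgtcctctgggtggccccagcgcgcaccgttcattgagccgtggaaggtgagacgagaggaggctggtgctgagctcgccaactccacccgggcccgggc
Pam: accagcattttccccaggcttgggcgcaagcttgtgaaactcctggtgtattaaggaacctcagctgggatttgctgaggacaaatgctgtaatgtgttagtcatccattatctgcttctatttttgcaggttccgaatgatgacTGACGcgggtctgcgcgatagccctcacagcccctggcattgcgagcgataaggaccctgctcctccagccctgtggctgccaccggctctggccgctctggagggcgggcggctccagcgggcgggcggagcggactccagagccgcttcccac
Counted from the start site as 0, the capitals begin at position -57 for Pcsk2, -173 for Cpe and -105 for Pam. Of 33469 promoter windows of the same length, 21.2% held TGACG on either strand. The letters GGGCGG, the core of the GC box, were present on either strand in 5 of the 7 windows, against 33.1% of all windows, with 7 copies for Pcsk2, 1 for Cpe and 4 for Pam. TATAAA was in 0 of the 7 windows, against 14.2% of all. These matches describe letters in a window and were not tested as binding sites.

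The libraries held 28318383 to 85977002 counted fragments or reads, and 20658 to 22120 genes had a count. Nicotine 2 was the deepest library and lay farthest from the others, with a mean distance of 90.8 in log2 CPM over all genes tested, against 72.0 to 80.7 for the other libraries. The protocol text in the labels describes testis tissue, but transcripts of the spermatid genes Prm1, Prm2, Tnp1 and Tnp2 and of the germ cell genes Ddx4 and Sycp3 did not exceed 3 counts in any library, and the hormone genes Gh1, Prl and Pomc were present in all of them. The list of sequenced reads per library in the supplement of the study runs opposite to the deposited totals. Each nicotine library has fewer listed reads than the control library of the same number but more counts. As named, counts per listed read were 1.325 to 1.43 in the nicotine libraries and 0.507 to 0.558 in the control libraries. They are alike across libraries, at 0.833 to 0.884, if the group names are exchanged. The direction of every difference here therefore rests on the names of the deposited libraries, which were kept. The column header of nicotine 1 names input data sets that do not follow each other in number, unlike those of the other 5 libraries.

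None of the 10 enzymes differed between the groups by more than 1.5-fold at an adjusted p under 0.1, the thresholds used for a call. The mean log2 level was higher in the nicotine group for 6 and lower for 4, and the differences ran from -0.67 for Pcsk2 to 0.45 for Furin on the log2 scale. edgeR's quasi-likelihood test called 0 of the 10, as it called 0% of the 17292 genes tested, and DESeq2 also called 0 of the 10, against 0.339% of 18001 genes. Before adjustment, 2 of the 10, Pcsk2 and Furin, passed 0.05 in edgeR, as did 6.14% of all genes. In 2 of the 10, Furin and Pcsk7, the groups did not overlap, in each case with the nicotine group higher, which was so for 6.12% of all genes, while 5.14% of all genes lay lower without overlap and 11.3% did not overlap in either direction. All levels below are counts per 1000000 counts of the library (CPM) after TMM scaling of the library sizes. They are not divided by transcript length and are compared between libraries for each gene only.

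**Figure D1:**
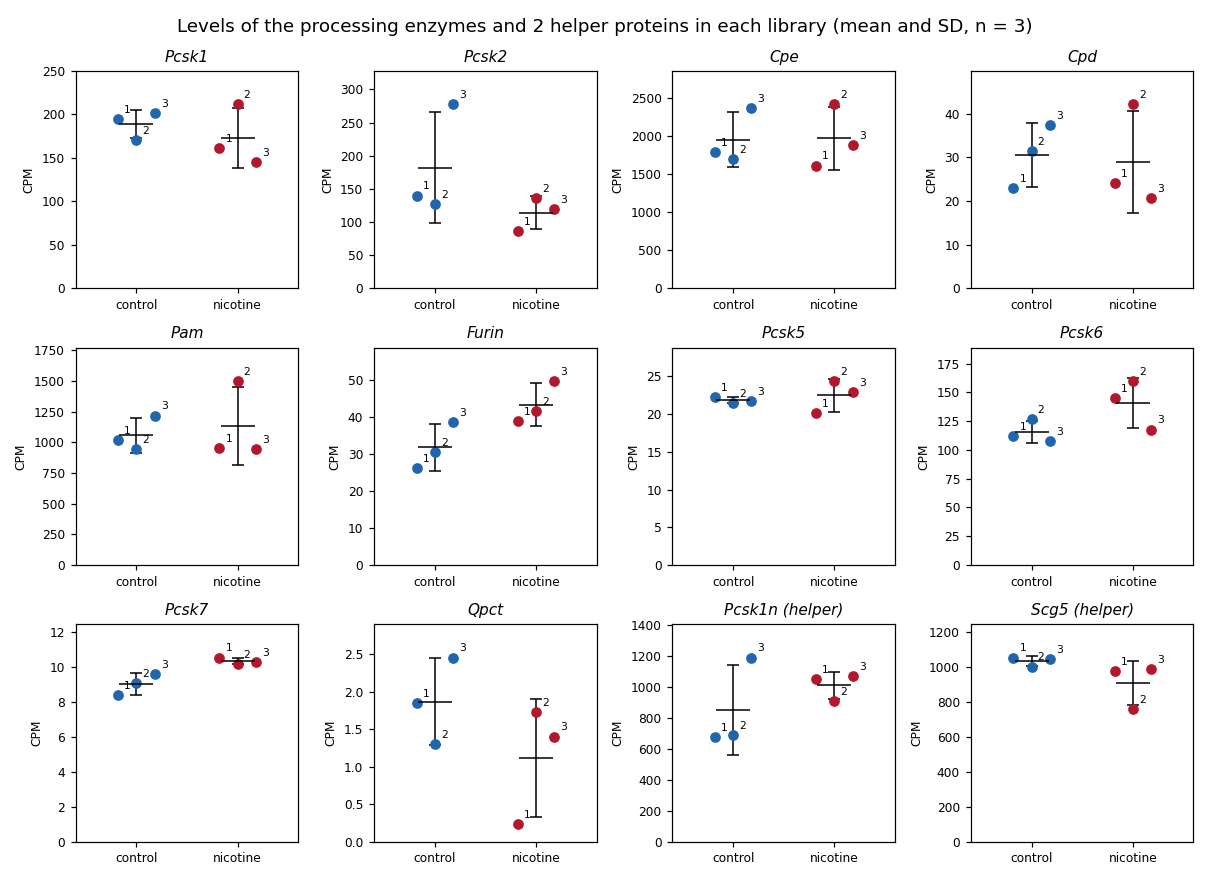
CPM of each enzyme and of the helper genes Pcsk1n and Scg5 in the 3 control (blue) and 3 nicotine (red) libraries, numbered by replicate, with the group mean and SD. Control 3 stands above the other 5 libraries for Pcsk2 at 278 CPM, nicotine 1 stands below them for Qpct at 0.233 CPM, and the groups are separate for Furin, Pcsk7 and Scg5.

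Among the granule convertases, Pcsk1, which makes the opening cuts in many precursors, was measured at 161, 212 and 145.5 CPM in nicotine 1, 2 and 3 and at 195, 171 and 201 CPM in control 1, 2 and 3. The groups overlapped, nicotine 2 was the highest library and nicotine 3 the lowest. The means were 173 ± 34.7 CPM in the nicotine group and 189 ± 16.2 CPM in the control group (SD, n = 3 each). The log2 difference was -0.13 (SE 0.18, 95% interval -0.52 to 0.27, adjusted p = 0.899 by edgeR). As a fold change the interval ran from 0.696 to 1.20, which leaves out a change of 1.5-fold in either direction.

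Pcsk2, which makes the later cuts that yield the smaller peptides, was, with Qpct, 1 of the 2 enzymes with a log2 difference beyond 0.6 in size. It was at 86.4, 136 and 119 CPM in nicotine 1, 2 and 3 and at 139.7, 127 and 278 CPM in control 1, 2 and 3. Control 3 was 1.99 times the next highest library, and the other control libraries fell inside or just above the range of the nicotine group. The means were 114 ± 25.3 and 181.5 ± 83.9 CPM (SD, n = 3 each). The fold change was 0.628, a log2 difference of -0.67 (SE 0.29, 95% interval -1.31 to -0.04), and it did not pass adjustment (adjusted p = 0.806 by edgeR and 0.655 by DESeq2). Without control 3 the log2 difference was -0.22, and without both control 3 and nicotine 2 it was -0.38.

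Pcsk2 is strongly expressed in melanotrophs, and the marker Pax7, the factor that specifies these cells, had its lowest and highest values in the same libraries as Pcsk2. Pax7 was at 12.5, 47.9 and 18.8 CPM in nicotine 1, 2 and 3 and at 18.5, 25.7 and 93.6 CPM in control 1, 2 and 3. The factor Tbx19, shared by corticotrophs and melanotrophs, also had its minimum in nicotine 1 at 23.0 CPM, but its maximum was in nicotine 2 at 85.4 CPM. Pomc was highest in control 3 at 71830 CPM and lowest in nicotine 2 at 20410 CPM. Crhr1, the other matched marker, was at 21.8, 36.3 and 19.7 CPM in nicotine 1, 2 and 3. It was at 27.1, 21.3 and 22.6 CPM in control 1, 2 and 3. The sum over the 4 matched corticotroph and melanotroph markers is almost all Pomc. It ran from 20580 to 46480 CPM in the nicotine group and from 36180 to 72020 CPM in the control group. Of the 4 markers, 1 was higher and 3 were lower in mean in the nicotine group.

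Markers of the posterior lobe varied as well. Rax, a marker of the pituicytes of the posterior lobe, was at 5.16, 11.2 and 6.31 CPM in nicotine 1, 2 and 3 and at 5.69, 2.97 and 0.291 CPM in control 1, 2 and 3. Nkx2-1 and Col25a1 were lowest in the same library, control 3, at 0.185 and 0.925 CPM, and highest in nicotine 2, at 4.70 and 14.2 CPM. Scn7a, the other marker of the list, was at 49.1, 100.4 and 61.5 CPM in nicotine 1, 2 and 3. It was at 73.1, 49.6 and 49.3 CPM in control 1, 2 and 3, so control 3 was level with nicotine 1 and control 2. The sum over all 4 pituicyte markers was 63.0 to 130.5 CPM in the nicotine group and 50.7 to 86.1 CPM in the control group. Scn7a made up most of it in each library, and all 4 were higher in mean in the nicotine group. The library with the most Pcsk2 thus had the most Pax7 and the least Rax, Nkx2-1 and Col25a1, but it did not stand apart for Scn7a. The part of the lobes in the Pcsk2 difference was not tested. In bulk tissue, fewer cells of a type and less RNA per cell cannot be told apart.

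**Figure D2:**
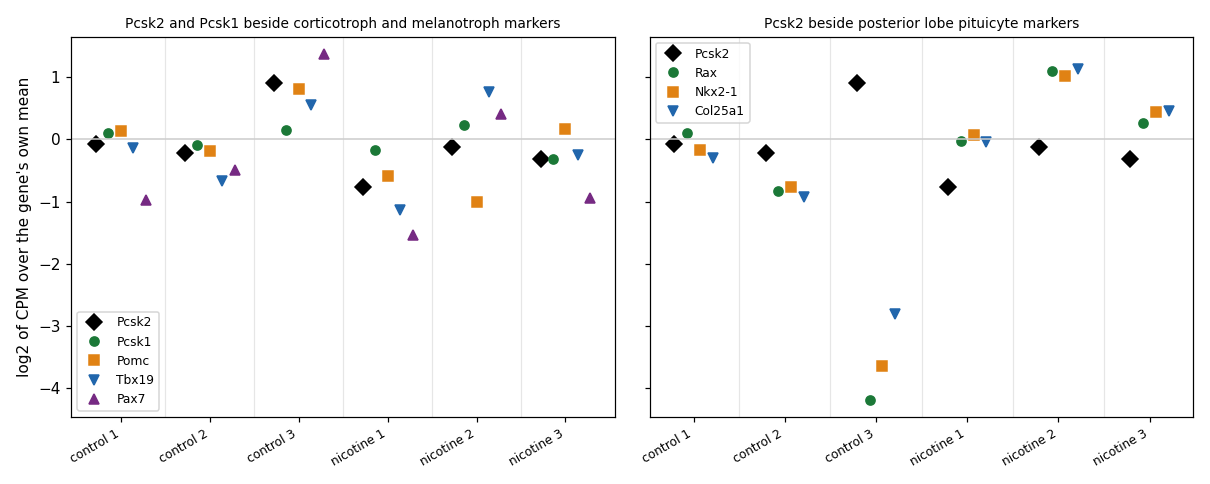
Log2 of CPM over the gene's own mean in each library for Pcsk2 (black diamonds) and Pcsk1 beside the corticotroph and melanotroph markers Pomc, Tbx19 and Pax7 (left), and for Pcsk2 beside the pituicyte markers Rax, Nkx2-1 and Col25a1 (right). In control 3, Pcsk2 lies at 0.91 and Pax7 at 1.37, whereas Rax lies at -4.18, and in nicotine 1 Pcsk2 lies at -0.77 and Pax7 at -1.53. The other matched markers of these lists, Crhr1 and Scn7a, are not drawn. Scn7a in control 3, at 49.3 CPM, was level with nicotine 1 at 49.1 CPM and control 2 at 49.6 CPM.

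Per count of Pax7, Pcsk2 gave ratios of 6.92, 2.84 and 6.34 in nicotine 1, 2 and 3 and 7.57, 4.92 and 2.97 in control 1, 2 and 3. Control 3 was then the second lowest library and no longer the highest. Pax7 also peaked in control 3 and varied more widely than Pcsk2, so this fall of control 3 follows from the choice of Pax7. Per count of Tbx19, the ratios were 3.76, 1.59 and 2.83 against 3.06, 4.01 and 3.76, with control 3 inside the range of the other libraries. Per count of Pomc the order was another, with nicotine 2 highest at 0.00667, control 3 next at 0.00387 and nicotine 3 lowest at 0.00257. These ratios were chosen after the values were seen and carry no test.

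The genes closest to Pcsk1 in pattern over the 6 libraries, by the root mean square difference of log2 CPM centred on each gene's mean, were Efr3a (0.03), Prkacb (0.03) and Stam2 (0.04), where Pcsk1 itself had an SD of 0.19. Closest to Pcsk2 were Sertm2 (0.10), Gabra3 (0.11) and Plekhd1 (0.11), against an SD of 0.51 for Pcsk2. Selected for this likeness, each of these 3 had its lowest value in nicotine 1 and its highest in control 3, as Pcsk2 did. Plekhd1 was low throughout, at 0.170 CPM in nicotine 1 and 0.7925 CPM in control 3. Gabra3, a subunit of the GABA-A receptor, was at 3.71, 5.71 and 5.12 CPM in nicotine 1, 2 and 3. It was at 5.32, 5.13 and 13.6 CPM in control 1, 2 and 3.

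Both convertases have small partner proteins in the granule. Pcsk1n, which encodes the Pcsk1 inhibitor proSAAS, was at 1054, 911 and 1071 CPM in nicotine 1, 2 and 3 and at 675, 689 and 1190 CPM in control 1, 2 and 3. Control 3 was the highest library and the other control libraries were the lowest, so the groups overlapped, with a log2 difference of 0.25 (SE 0.25, 95% interval -0.31 to 0.81, adjusted p = 0.858 by edgeR). It was 0.57 without control 3 (adjusted p = 0.852), 0.11 without control 1, 0.12 without control 2 and 0.63 without both control 3 and nicotine 2 (adjusted p = 0.426). Scg5, whose product is needed for Pcsk2 to mature, was at 974, 760.3 and 988 CPM in nicotine 1, 2 and 3 and at 1053, 1002 and 1045 CPM in control 1, 2 and 3. All nicotine libraries were below all control libraries, by a log2 difference of -0.19 (SE 0.20, 95% interval -0.63 to 0.26) that did not pass the test (adjusted p = 0.868 by edgeR). With library sizes alone, without TMM factors, the Scg5 groups overlapped.

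Ratios of counts within a library do not depend on its size. The ratio of Pcsk2 to Pcsk1 was 0.535, 0.643 and 0.8195 in nicotine 1, 2 and 3 and 0.716, 0.742 and 1.38 in control 1, 2 and 3, with means of 0.666 ± 0.144 and 0.947 ± 0.377 (SD, n = 3 each). Nicotine 1 was lowest and control 3 highest, the groups overlapped, and the log2 difference of -0.46 had p = 0.3 in an exact two-sided permutation test, whose smallest possible p with these 6 libraries is 0.1. The ratio of Scg5 to Pcsk2 was 11.3, 5.58 and 8.28 against 7.54, 7.91 and 3.76, a log2 difference of 0.41 (exact permutation p = 0.4). The ratio of Pcsk1n to Pcsk1 was 6.53, 4.30 and 7.36 against 3.46, 4.04 and 5.91, a log2 difference of 0.44 (exact permutation p = 0.2). After Benjamini-Hochberg adjustment over the 3 ratios, each exact permutation p was 0.4. Without control 3 the log2 difference was -0.15 for Pcsk2 to Pcsk1, 0.06 for Scg5 to Pcsk2 and 0.66 for Pcsk1n to Pcsk1. Without nicotine 1 that of Scg5 to Pcsk2 was 0.16 and without nicotine 2 it was 0.67, while that of Pcsk1n to Pcsk1 was 0.67 without nicotine 2, 0.28 without nicotine 3 and 0.27 without control 1.

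**Figure D3:**
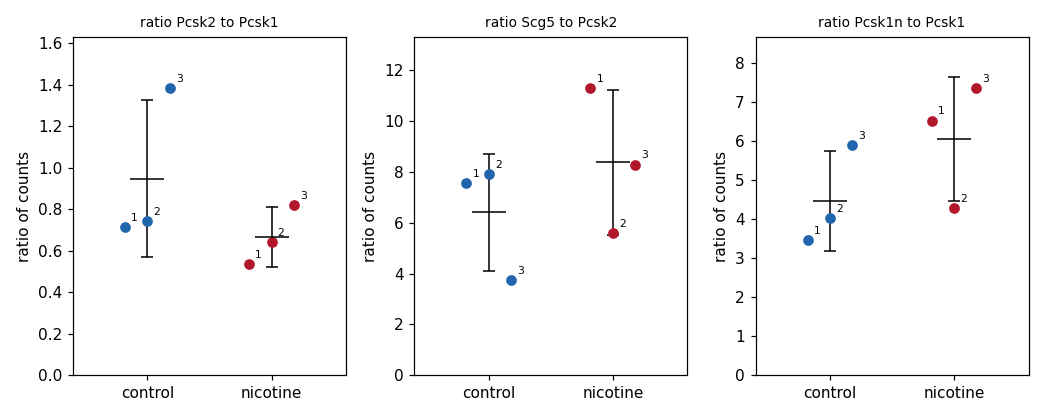
Ratios of counts within each control (blue) and nicotine (red) library, numbered by replicate, with the group mean and SD (n = 3 each). Control 3 has the highest ratio of Pcsk2 to Pcsk1 (1.38) and the lowest of Scg5 to Pcsk2 (3.76), and the groups overlap in all 3 panels.

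Of the carboxypeptidases, Cpe, the granule enzyme that trims basic residues after the convertases have cut, was at 1613, 2425 and 1878 CPM in nicotine 1, 2 and 3 and at 1794, 1703 and 2373 CPM in control 1, 2 and 3. Nicotine 2 and control 3 were the highest libraries and the groups overlapped throughout. The means of 1972 ± 414 and 1957 ± 364 CPM (SD, n = 3 each) differed by 0.01 on the log2 scale (SE 0.26, 95% interval -0.57 to 0.59, adjusted p = 0.996 by edgeR).

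Cpd, which does the same trimming in the trans-Golgi network, was at 24.1, 42.3 and 20.6 CPM in nicotine 1, 2 and 3 and at 23.0, 31.4 and 37.4 CPM in control 1, 2 and 3. The nicotine libraries held both the highest and the lowest value. The log2 difference was -0.08 (SE 0.27, 95% interval -0.68 to 0.52, adjusted p = 0.966 by edgeR), and without nicotine 2 it was -0.47.

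Pam, the amidating enzyme, was at 951, 1503 and 948.5 CPM in nicotine 1, 2 and 3 and at 1017, 943 and 1219 CPM in control 1, 2 and 3. Nicotine 2 was again highest and control 3 next, while the remaining libraries lay close together. The log2 difference was 0.10 (SE 0.25, 95% interval -0.44 to 0.64, adjusted p = 0.948 by edgeR). The ratio of Pam to Cpe, also chosen after the values were seen, stayed between 0.505 and 0.620 in all 6 libraries.

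Qpct, which closes an N-terminal glutamine into pyroglutamate, had few counts, with 11, 159 and 85 in nicotine 1, 2 and 3 and 50, 69 and 93 in control 1, 2 and 3. Scaled, these were 0.233, 1.73 and 1.40 CPM against 1.85, 1.305 and 2.46 CPM. Nicotine 1 lay below all others, its exact 95% Poisson interval of 0.1165 to 0.418 CPM covering counting error only, and the next lowest library was 5.59 times higher. The means of 1.12 ± 0.786 and 1.87 ± 0.576 CPM (SD, n = 3 each) gave a log2 difference of -0.64 (SE 0.51, 95% interval -1.77 to 0.48, adjusted p = 0.841 by edgeR). Without nicotine 1 the log2 difference was -0.23.

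Furin, the convertase of the trans-Golgi network that cuts growth factors, receptors and matrix proteases, was at 38.8, 41.5 and 49.8 CPM in nicotine 1, 2 and 3 and at 26.2, 30.5 and 38.7 CPM in control 1, 2 and 3. All nicotine libraries were above all control libraries, but nicotine 1 and control 3 were only 0.0774 CPM apart. The means were 43.4 ± 5.73 and 31.8 ± 6.37 CPM (SD, n = 3 each), a fold change of 1.36. The log2 difference of 0.45 (SE 0.19, 95% interval 0.04 to 0.855) did not pass adjustment (adjusted p = 0.806 by edgeR and 0.774 by DESeq2). The exact permutation test gave p = 0.1 for Furin, the smallest it can give, and this was so for Pcsk7 and Scg5 too. Groups of 3 libraries without overlap always give this p, so it adds nothing to the lack of overlap. For Pcsk2 the exact permutation p was 0.2.

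Furin is made in most cell types, and markers of the vessel wall are given beside it. All 5 endothelial markers were higher in mean in the nicotine group, their sum running from 149.7 to 250.8 CPM in the nicotine group and from 124 to 163 CPM in the control group. All 8 markers of smooth muscle and pericytes were likewise higher in mean, with sums of 60.4 to 229 CPM against 54.6 to 69.0 CPM. Nicotine 3, the library with the most Furin, had the highest sum of both lists, in smooth muscle mostly from Tagln at 137.9 CPM. Control 3, the control library with the most Furin, had the lowest sums of all 6 libraries, and nicotine 2 had a smooth muscle sum of 60.4 CPM, below control 1 and 2. The higher means were not particular to the vessel wall. All tested markers of somatotrophs, gonadotrophs, stem and folliculostellate cells and pituicytes were also higher in mean in the nicotine group. Those of lactotrophs, thyrotrophs, fibroblasts and meninges, erythroid cells, macrophages, neutrophils and oligodendrocytes were all lower. The part of any of these cells in the Furin values was not tested.

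The other convertases of the constitutive route differed less. Pcsk6, which is anchored in the extracellular matrix and cuts growth factors of the TGF-beta family, was at 145, 160.1 and 118 CPM in nicotine 1, 2 and 3 and at 112, 127 and 108 CPM in control 1, 2 and 3. Nicotine 1 and 2 were above all control libraries and nicotine 3 lay among them, with a log2 difference of 0.29 (SE 0.17, 95% interval -0.08 to 0.65, adjusted p = 0.821 by edgeR).

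Pcsk7, the membrane-bound convertase of the late Golgi, was at 10.5, 10.2 and 10.3 CPM in nicotine 1, 2 and 3 and at 8.38, 9.06 and 9.615 CPM in control 1, 2 and 3. The groups did not overlap and each was narrow, at 10.3 ± 0.193 and 9.02 ± 0.618 CPM (SD, n = 3 each). The log2 difference was 0.19 (SE 0.18, 95% interval -0.20 to 0.59, adjusted p = 0.853 by edgeR).

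Pcsk5, which cuts secreted precursors at the cell surface, was the steadiest of the 10 genes. It was at 20.1, 24.4 and 23.0 CPM in nicotine 1, 2 and 3 and at 22.3, 21.5 and 21.8 CPM in control 1, 2 and 3, so the control libraries lay inside the range of the nicotine group. The log2 difference was 0.04 (SE 0.16, 95% interval -0.31 to 0.40, adjusted p = 0.966 by edgeR), and the interval as a fold change, 0.808 to 1.32, leaves out a change of 1.5-fold in either direction.

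**Figure D4:**
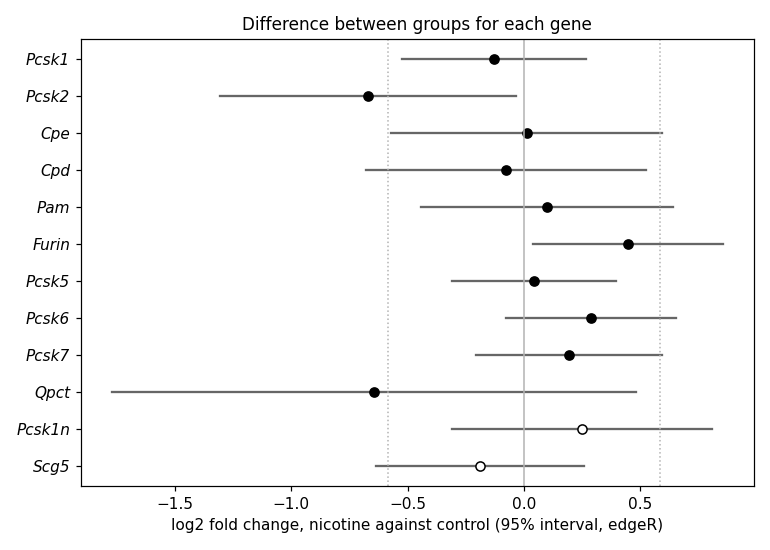
Log2 fold change of nicotine against control with its 95% interval from edgeR for the 10 enzymes (filled) and the 2 helper genes (open), with dotted lines at a fold change of 1.5 in each direction. The interval leaves out 0 for Pcsk2 (-1.31 to -0.04) and Furin (0.04 to 0.855) before adjustment for 17292 tests, and includes 0 for the other genes.

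The spread between rats within a group was in several genes as large as the difference between groups. The highest library was at most 2 times the lowest for 7 of the 10 enzymes, and the largest spans were 10.5-fold for Qpct, 3.22-fold for Pcsk2 and 2.05-fold for Cpd. Nicotine 2 and control 3 were the highest libraries for 4 genes, Pcsk1, Cpe, Cpd and Pam, although they belong to opposite groups. Together the 10 enzymes took 0.311%, 0.488% and 0.319% of all counts in nicotine 1, 2 and 3 and 0.319%, 0.308% and 0.438% in control 1, 2 and 3, so the same libraries led in the sum.

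**Figure D5:**
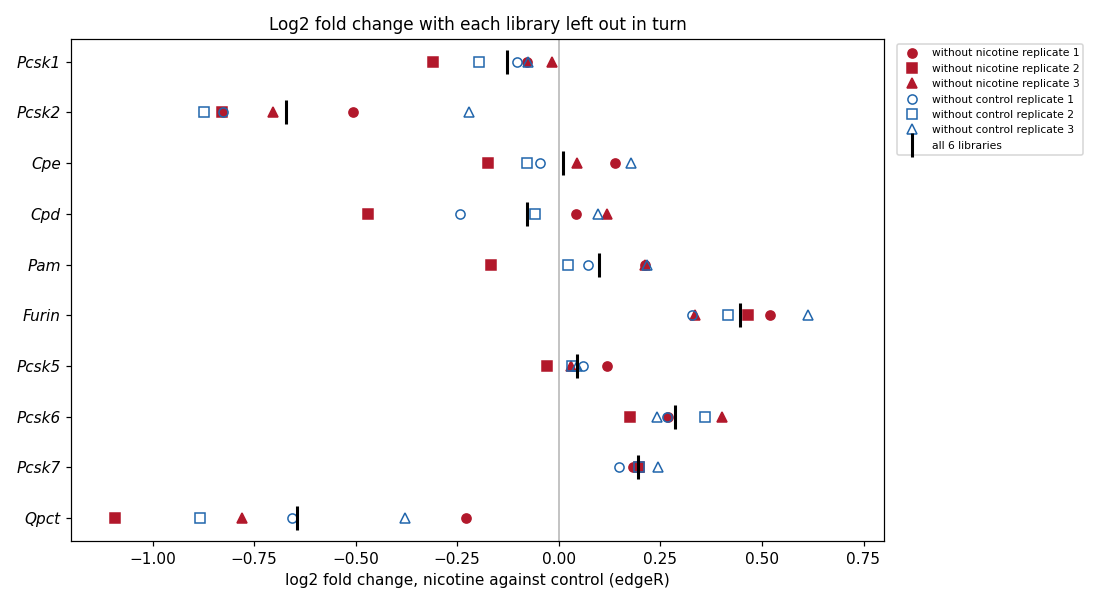
Log2 fold change of each enzyme from edgeR with each library left out in turn (symbols) and with all 6 libraries (black bars). The estimates for Pcsk2 run from -0.87 to -0.22 and those for Furin from 0.33 to 0.61, while Cpe, Cpd, Pam and Pcsk5 have estimates on both sides of 0.

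The other genes of the processing route were examined as 8 lists with 97 genes, of which 90 could be tested. None was called by edgeR. An unadjusted p under 0.05 was found for 9 (10% of the 90, against 6.14% of all genes tested), and 12 had groups without overlap (13.3%, against 11.3% of all genes tested). The median log2 difference over all genes tested was 0.007, which is the value to read the list medians against.

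The convertase-like genes Mbtps1 and Pcsk4 had a median of 0.15 and were both higher in mean, with Mbtps1, the Golgi protease that helps to release membrane-bound transcription factors, at 212 ± 29.2 against 195 ± 14.4 CPM (SD, n = 3 each). Of 7 genes for other proteins of the carboxypeptidase family and the Golgi glutaminyl cyclase Qpctl, 3 were higher and 4 lower, with a median of -0.07. Qpctl was at 39.4 ± 8.20 against 33.6 ± 1.24 CPM, Cpxm2 at 21.6 ± 3.81 against 22.9 ± 2.14 CPM and Aebp1 at 20.4 ± 7.12 against 17.2 ± 1.48 CPM, with overlapping groups. Of the others, named after their values were seen, Cpxm1 was higher without overlap at 6.81 ± 1.47 against 4.77 ± 1.06 CPM and Cpn1 lower without overlap at 0.286 ± 0.103 against 0.585 ± 0.225 CPM (adjusted p = 0.813 and 0.807 by edgeR).

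Of 11 other peptidases of the secretory and lysosomal route, 3 were higher and 8 lower, with a median of -0.11. The cathepsins with the most counts were all lower in mean: Ctsb was at 705 ± 51.8 against 761 ± 58.3 CPM, Ctsd at 306 ± 26.6 against 330 ± 15.7 CPM, and Ctsl, which can also cut hormone precursors, at 228 ± 52.4 against 272 ± 38.3 CPM (SD, n = 3 each). The adjusted p by edgeR of Ctsb, Ctsd and Ctsl lay between 0.841 and 0.920. Dpp4, named after its values were seen, was the gene of this list without overlap, at 0.535 ± 0.191 against 1.08 ± 0.220 CPM (adjusted p = 0.785 by edgeR).

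Amidation by Pam needs copper and ascorbate, which reach the granule through transporters and the electron carrier Cyb561. The 5 genes of this supply had a median of 0.03, with 3 higher and 2 lower. Cyb561 was at 161 ± 40.2 against 151 ± 14.5 CPM, the copper pump Atp7a at 50.7 ± 14.4 against 55.3 ± 8.11 CPM and the ascorbate transporter Slc23a2 at 41.4 ± 7.40 against 46.9 ± 9.86 CPM (SD, n = 3 each). Of the 18 subunits and accessory proteins of the proton pump, which acidifies granules so that the convertases become active, 5 were higher and 13 lower, with a median of -0.09. Atp6v1b2 was at 460 ± 120.3 against 465 ± 59.1 CPM, Atp6v1g1 at 373 ± 66.4 against 426 ± 35.5 CPM and Atp6ap1 at 337 ± 28.6 against 385 ± 51.9 CPM. Atp6v0e2, named after its values were seen, was lower without overlap (log2 difference -0.20, SE 0.15, adjusted p = 0.840 by edgeR).

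The substrates of the granule enzymes had a median of 0.25, with 11 of 20 tested precursors higher and 9 lower. With a library left out the median was 0.12 without nicotine 1, 0.07 without nicotine 3, 0.07 without control 3 and up to 0.37 without control 1. The 6 others, Cck, Nts, Trh, Grp, Ghrh and Sst, had too few counts to test. Pomc, the precursor with the most counts, was at 31382 ± 13461 against 51007 ± 18582 CPM, a log2 difference of -0.70 (SE 0.69, adjusted p = 0.854 by edgeR). Scg2 was at 3699 ± 273 against 3709 ± 218 CPM. Chgb, a granin that helps to form granules, was at 1577, 1601 and 2620 CPM in nicotine 1, 2 and 3 and at 1281, 1483 and 1518 CPM in control 1, 2 and 3, without overlap (log2 difference 0.44, SE 0.27, adjusted p = 0.827 by edgeR).

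All nicotine libraries were above all control libraries for 5 of the 20 precursors tested (25%, against 6.12% of all genes), namely Chga, Chgb, Tac1, Avp and Oxt, and the 4 besides Chgb were named after their values were seen. The granin Chga was at 1773, 1896 and 1973 CPM in nicotine 1, 2 and 3 and at 1190, 1214 and 1318 CPM in control 1, 2 and 3, the groups lying clearly apart (log2 difference 0.60, SE 0.22, adjusted p = 0.776 by edgeR). Tac1, the substance P precursor, was at 16.1, 96.9 and 25.7 CPM against 15.99, 14.5 and 10.5 CPM, with nicotine 1 and control 1 almost level. Avp, the vasopressin precursor, was at 35.7, 129 and 33.6 CPM in nicotine 1, 2 and 3 and at 32.3, 6.56 and 2.72 CPM in control 1, 2 and 3. Oxt, the oxytocin precursor, was at 32.7, 73.9 and 31.6 CPM against 31.2, 13.0 and 2.67 CPM. Both were highest in nicotine 2 and lowest in control 3, the libraries with the most and the least of Rax, Nkx2-1 and Col25a1, and control 1 was nearly level with nicotine 1 and 3 (adjusted p = 0.760 for Avp and 0.806 for Oxt by edgeR). The part of the posterior lobe in these values was not tested.

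Precursors that furin-like enzymes cut had a median of 0.08, with 19 of 25 higher and 6 lower. Lrp1 was at 69.1 ± 20.3 against 69.4 ± 6.80 CPM, Adam10 at 41.7 ± 9.94 against 41.4 ± 1.00 CPM and Insr at 36.8 ± 5.98 against 36.4 ± 6.64 CPM (SD, n = 3 each), each within the spread of its group. Chosen after the values were seen, the genes of this list without overlap were Pdgfb, a growth factor subunit, at 5.60 ± 0.477 against 3.69 ± 0.681 CPM, and Bdnf, a neurotrophin, at 5.23 ± 1.56 against 10.4 ± 5.30 CPM (adjusted p = 0.806 and 0.760 by edgeR).

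Other cell types varied between the samples as well. Of 15 marker lists, with 63 of 64 genes matched, 1 had sums that did not overlap between the groups: that of fibroblasts and meninges, at 287 to 501 CPM in the nicotine group and 578 to 784.5 CPM in the control group, with all 6 genes lower in mean in the nicotine group. Dcn was the largest part of this sum in each library. It was at 233, 101 and 246 CPM in nicotine 1, 2 and 3 and at 339, 430 and 284 CPM in control 1, 2 and 3. Dcn, Col1a1 and Lum did not overlap between the groups, whereas Col1a2, Col3a1 and Pdgfra did. The part of these cells in the values of the enzymes was not tested.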

How the data were processed

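Per the labels and the methods of the study, stranded paired-end libraries were sequenced, mapped by the authors to the rat genome rn7 with HISAT2 2.1.0 and assigned to ncbiRefSeq genes with featureCounts. The deposited values are raw counts per gene symbol, 1 library per file. The version and options of featureCounts, including strand and multiply mapped reads, and whether reads or pairs were counted, are not given in the sources used here.

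Calculations were done in R 4.3.3. Genes were filtered with filterByExpr, scaled by TMM and compared with the quasi-likelihood test of edgeR 4.0.16 on group alone, with Benjamini-Hochberg adjustment over all genes tested. SE was taken from the log2 fold change and its F statistic. The biological coefficient of variation was 23.6%. Alternatives used DESeq2 1.42.0, voom of limma 3.58.1, other scalings, filters and thinned counts, and left libraries out. The older edgeR fit, the fit without nicotine 2 and control 3, and DESeq2 with each library left out were added after seeing the data. The code was tested on simulated data.

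The members, lists and named genes were chosen with earlier results of these data known: all 10 enzymes and 2 helpers, the 3 genes with most CPM of each list, and the 3 genes most like Pcsk1 and Pcsk2. Promoter letters came from RefSeq GRCr8, and no coordinate was carried between builds.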

Additional observations from a re-analysis of the deposited data

How the results depend on the processing

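Of 429 recomputed values, 13 differences of single enzymes changed sign and 9 counts or medians moved by more than their limit. The other 407 kept to the rule of their kind. Single genes kept their sign and their side of the calling threshold, and ratios kept their sign. Counts stayed within their limit, and list medians stayed within the spread between replicates. For single genes and ratios this allows large changes in size. Those 407 include 15 of 136 recomputed list medians that changed sign, all in 4 lists with a median near 0. With a library left out, these medians ran from -0.05 to 0.20 for the helpers, -0.14 to 0.07 for the amidation supply, -0.15 to 0.04 for the carboxypeptidases and -0.15 to 0.03 for the other peptidases, and that of the granule precursors ran from 0.07 to 0.37. No alternative called any of the 10 enzymes, including DESeq2 with each library left out. An unadjusted p under 0.05 was originally found for 2 enzymes by edgeR. It was found for 1 (Furin) with library sizes alone, with voom and without both nicotine 2 and control 3. With a library left out the number was 1 to 3. Furin was lost without nicotine 3, control 1 or control 2, and Pcsk2 without nicotine 1, nicotine 3 or control 3. Other enzymes came in. Without nicotine 3 only Pcsk6 passed (log2 difference 0.40), and without nicotine 2 Cpd passed (-0.47) besides Furin and Pcsk2. The log2 difference of Pcsk2 was -0.87 to -0.22 with a library left out, the latter without control 3, that of Furin 0.33 to 0.61, and that of Qpct -1.09 to -0.23, the latter without nicotine 1. Differences near 0 changed sign: Cpe to -0.0445 with voom, to -0.0072 without nicotine 2 and control 3 and within -0.17 to 0.18 with a library left out, Pam to -0.0401, -0.0493 and -0.17 to 0.22, Pcsk5 to -0.0266 without both libraries and -0.0283 to 0.12, and Cpd to -0.47 to 0.12 with a library left out; the cause was not tested. The median of the 2 helper genes moved from 0.03 to 0.28 without nicotine 2 and control 3. Adjusted p over these alternatives ran from 0.542 to 1 for Furin and from 0.608 to 1 for Pcsk2.

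In expression, same-numbered libraries did not deviate together (correlations 0.03, -0.20 and -0.08), so the numbers were not taken as pairs. In depth they had the same order in both groups. Nicotine 1, 2 and 3 had 46239801, 85977002 and 62932317 counts. Control 1, 2 and 3 had 28318383, 54309256 and 37095718 counts. The cause of this shared order was not tested. With the replicate number as a block, 0 enzymes were called and the log2 differences were -0.60 for Pcsk2 and 0.46 for Furin.

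With 3 rats a group and the spread seen here, most intervals include a change of 1.5-fold, so that a difference of this size is not excluded for them. Qpct had 11 counts in nicotine 1, whose counting interval lay below those of the other 5 libraries. By the deposited totals and names the nicotine libraries were deeper, with a median total 1.70 times that of the control libraries. The reads listed in the supplement run the other way.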
